A study of Caenorhabditis elegans with 3 samples.

Results

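The 31 genes described here are the Wnt, semaphorin, ephrin and Hox genes of Caenorhabditis elegans that pattern cell migration and the male tail. They were chosen by name, out of 19973 protein-coding genes, because MML-1 is known for a role in the migration of the ray cells of the male tail. Each gene was given a window from 5 kb upstream of its first transcript start to its end. Within it, the region of best rank in a genome-wide list of MML-1 chromatin immunoprecipitation (ChIP-seq) regions was taken as its best region. The other 19942 protein-coding genes, treated the same way, were the background.

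The ChIP was done in whole L3 larvae of strain OP198, genotype unc-119(ed3) III; wgIs198, in populations of mixed sex. The integrated transgene expresses MML-1 with a C-terminal GFP-FLAG tag, which the labels also call eGFP. The promoter of the transgene is not given in the sources used here, and all larvae carry it, so there is no second condition. There were 3 biological replicates. Per the labels, worms of replicates 1 and 2 came from a stock centre and those of replicate 3 from the submitting laboratory, and sonication is recorded for replicate 3 alone. Lists of regions carry no cell type, so binding in a few cells and weak binding in many cannot be told apart.

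The authors deposited a pooled list of 30000 regions, made from the 3 replicates together, with 195 reproducible peaks within it, and lists of 30000, 30000 and 27021 regions for replicates 1, 2 and 3. The long lists hold peaks and background by design. No read total accompanies a list, and the sequencing depth is therefore unknown. A region's signal is the authors' own ChIP value relative to a control library and can be ranked only within its list, where rank 1 is the highest signal. The pooled list runs down to a signal of 6.01, with a median of 7.95, and the last reproducible peak has 26.0. The 3 replicate lists have median signals of 4.25, 3.70 and 3.06.

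Wnt proteins are secreted lipid-modified ligands. The acyltransferase Porcupine and the carrier Wntless bring them out of the cell, Frizzled and Ror receptors bind them, and β-catenins with the TCF protein POP-1 carry the signal to genes unless a complex of Axin, APC and GSK-3 removes the β-catenin. In the worm these signals orient cell divisions and guide migrating cells along the body, partly through the Hox genes lin-39, mab-5 and egl-5. Semaphorins with plexins, and ephrins with the Eph receptor, keep the ray cells of the male tail apart and in place. MML-1 pairs with MXL-2 and is known to bind the E-box CACGTG.

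Of the 31 genes, 1 had a reproducible peak in its window, mig-14, against 1.19% of other protein-coding genes and 1.65% of the 9035 other genes whose windows had lengths in the same range. It encodes the Wntless protein that carries Wnt ligands to the cell surface. Only this region carried a CACGTG among the 13 best regions of the genes that ranked in the first 3000, and it was the only best region of the 31 to rank among the first 1000 of each replicate. The remaining 30 genes had regions of the pooled list in their windows, but none in the reproducible list. A region of the first 1000 was found in the windows of 4 genes, or 12.9%, against 6.59% of other genes and 8.81% of those with windows in that range. The latter had a median window of 8846 bp, against 11387 bp for the 31 genes. Among other genes with windows of 10 to 12 kb the share was 10.4%.

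The deposited region of mig-14 and the site in it are shown because they carry the reproducible peak of the set. The region, read on the forward strand of the WBcel235 (ce11) genome at chrII:13736996-13737123, is 128 bases long, and the capitals mark its single CACGTG.
mig-14 region: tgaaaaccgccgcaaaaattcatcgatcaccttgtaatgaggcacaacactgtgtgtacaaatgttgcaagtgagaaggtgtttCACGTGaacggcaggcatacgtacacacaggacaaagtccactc
The other best regions with a CACGTG within 100 bp of the summit were those of cwn-2 and wrm-1. The 3 sites are set side by side with 12 bases on each side, from chrII:13737068-13737097, chrIV:10063763-10063792 and chrIII:5723970-5723999 on the forward strand.
mig-14 site: gagaaggtgtttCACGTGaacggcaggcat
cwn-2 site: caagtgggggttCACGTGgtgtcacggttt
wrm-1 site: agcgagcactgaCACGTGtatcgcaggttt
The site lay 3 bp from the summit at mig-14, 26 bp at cwn-2 and 39 bp at wrm-1. CACGTG reads the same on both strands, so a site counts once.

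The mig-14 peak (gene WBGene00003246) had a signal of 92.7 and rank 39 in the pooled list. Its signals were 37.4, 23.3 and 36.4 in replicates 1, 2 and 3, where it ranked 41, 32 and 36. All 3 replicates placed it near the same rank, on either side of the pooled one. Among the first 1000 pooled regions, 30 had a summit within 200 bp of one of the first 50 regions of every replicate, and 24 of those had CACGTG. The mig-14 peak is 1 of these.

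The summit lay 4661 bp upstream of the first mig-14 start, outside any protein-coding gene. The closest annotated protein-coding gene is R06B9.5 (WBGene00011056), on the same strand, at 13736320 to 13736933. Non-coding genes were not looked at. The summit is 144 bp past its end and 757 bp downstream of its start. No other protein-coding gene has the summit in its window, and mig-14 itself is at 13741738 to 13749983. The window of mig-14 held 5 CACGTG sites. Of these, 1 lay within 100 bp of a second pooled region, at rank 10186 and 3630 bp upstream, and 3 had no pooled summit within 100 bp.

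**Figure D1:**
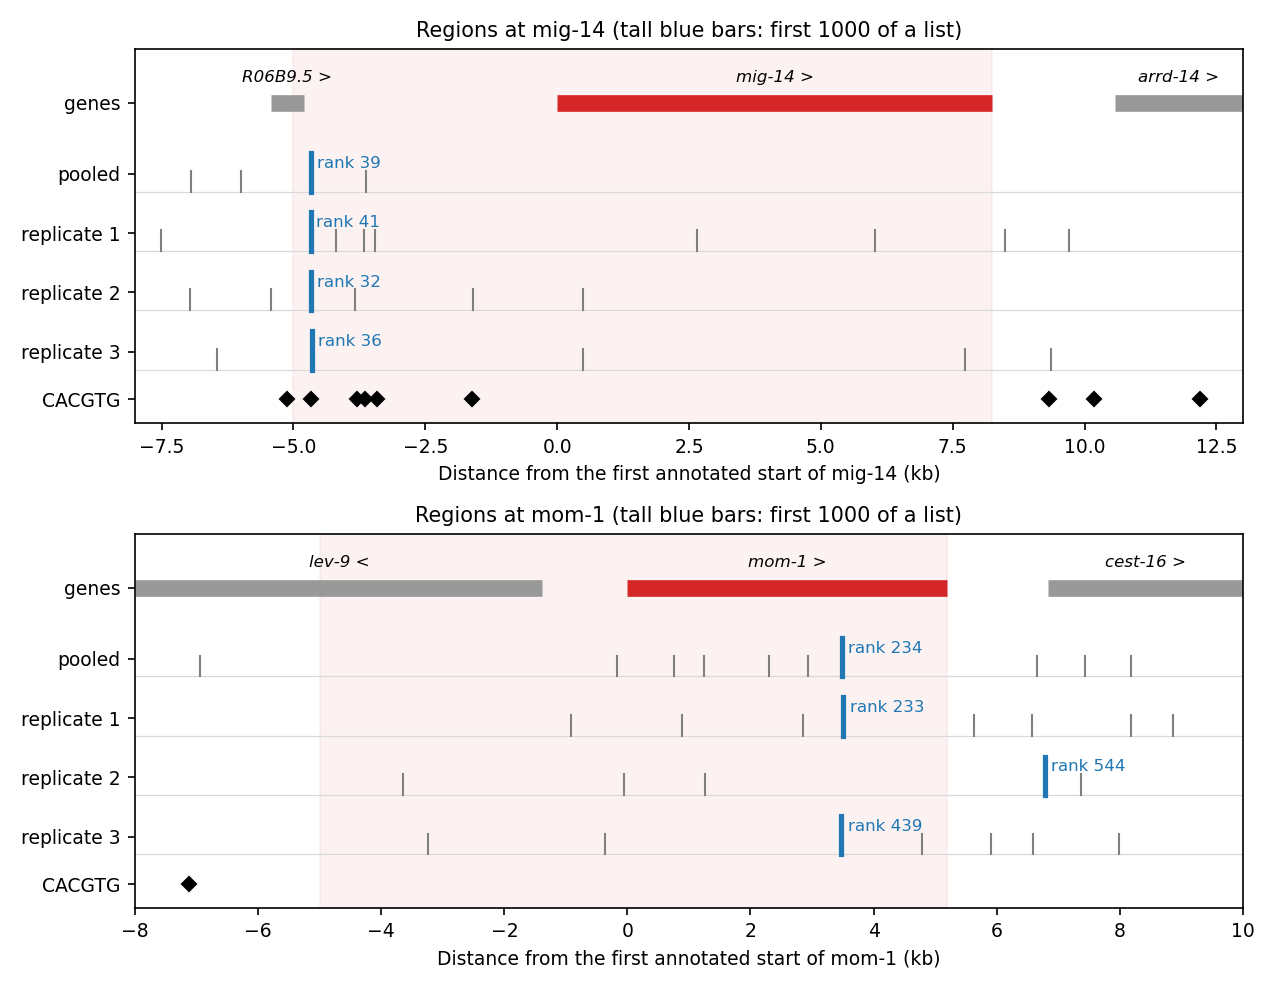
Summits of regions (vertical bars, tall and blue for the first 1000 of a list) in the pooled list and the 3 replicate lists at mig-14 and mom-1, by distance from the first annotated start in kb, with genes (bars, arrow for strand), CACGTG sites (diamonds) and the gene's window (shaded). The mig-14 peak stands at the same place in all 4 lists, while the mom-1 region is present in the pooled list and in replicates 1 and 3.

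The second gene of Wnt secretion, mom-1 (WBGene00003394), encodes the Porcupine acyltransferase. Its best region, in an intron at chromosome X, 6296451 to 6296734, had a signal of 23.9 and rank 234, which is 39 ranks below the last reproducible peak. It ranked 233 in replicate 1 with a signal of 12.1 and 439 in replicate 3 with a signal of 8.13. Replicate 2 had no region within 200 bp, and its best region in the mom-1 window ranked 1911. The region is shown as the closest to the reproducible list, and it has no CACGTG, as do all 10194 bp of the window.
mom-1 region: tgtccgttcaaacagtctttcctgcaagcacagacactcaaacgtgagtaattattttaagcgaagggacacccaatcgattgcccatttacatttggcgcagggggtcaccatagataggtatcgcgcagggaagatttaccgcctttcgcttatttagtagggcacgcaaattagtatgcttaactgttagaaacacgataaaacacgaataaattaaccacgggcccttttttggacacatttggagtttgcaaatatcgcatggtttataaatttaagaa
It was read at chrX:6296451-6296734 on the forward strand. The summit lay 3481 bp downstream of the mom-1 start and 3349 bp upstream of the carboxylesterase-like gene cest-16, whose window also holds it, as does that of lev-9. With the gene body left out of the window, from 5 kb upstream to 200 bp downstream of a start, the best rank of mom-1 was 21638. In replicate 2 a region of rank 544 lay outside the mom-1 window, 6790 bp from the mom-1 start. It lay past the end of mom-1 and just upstream of cest-16, which starts at 6830 bp on the same scale. The pooled list had a region of rank 1074 nearby, at 6659 bp.

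The 5 Wnt ligand genes had best pooled ranks from 2373 to 24458. The best was egl-20 (WBGene00001188), a ligand made in the tail that directs neuroblast migration, with a signal of 12.5 in an intron on chromosome IV, 9814463 to 9814746. That region ranked 29773 in replicate 1 with a signal of 3.03 and 1765 in replicate 3 with a signal of 5.73, and replicate 2 had none within 200 bp. It was high in replicate 3 alone. The ligand genes cwn-1, cwn-2, lin-44 and mom-2 ranked 6061, 6401, 9148 and 24458. The cwn-2 region, which holds CACGTG, was at ranks 29952 and 26145 in replicates 1 and 2 and was not matched in replicate 3. It lay 4010 bp upstream of cwn-2 and nearer to ipla-7.

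Of the 5 receptor genes, 3 ranked between 1000 and 2000, and none had a reproducible peak or a CACGTG in the best region. A first-2000 region was found for 13.5% of other genes and 17.2% of those in the same range of window lengths. For the Frizzled gene mom-5 (WBGene00003397), the best region was on chromosome I, 9961986 to 9962269, with signal 14.8 and rank 1077. It ranked 7104 and 10523 in replicates 1 and 2, was not matched in replicate 3, and lay 151 bp upstream of algn-10. The Ror receptor gene cam-1 (WBGene00000289) had signal 14.3 and rank 1250 in its intron on chromosome II, 9309592 to 9309875, 570 bp downstream of a start. Replicates 2 and 3 placed that region at 3065 and 2247, with signals of 5.86 and 5.41, and replicate 1 had none.

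The Frizzled gene cfz-2 (WBGene00000478) had rank 1607, with signal 13.6, 806 bp upstream of its start on chromosome V, 3445541 to 3445824. The region ranked 168 in replicate 2 with a signal of 10.4 and was matched in neither replicate 1 nor replicate 3. It is the only one of the 31 best regions with a first-1000 rank in replicate 2 besides that of mig-14. The Frizzled genes lin-17 and mig-1 ranked 3679 and 15130, and the lin-17 region had no match in any replicate.

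Among the 4 β-catenin genes sys-1 (WBGene00006379), the coactivator of POP-1, ranked 519 and the others 14844 to 17408. The sys-1 region had a signal of 17.7 on chromosome I, 9988854 to 9989137. It ranked 434 in replicate 1 with a signal of 10.2, and 16781 and 16503 in replicates 2 and 3 with signals of 3.53 and 2.77. It lay 4202 bp upstream of sys-1 but 136 bp upstream of the histone gene his-68, and the windows of his-67 and alg-5 hold it too. The best region nearer to sys-1 itself, 447 bp upstream, ranked 2126. The genes bar-1, wrm-1 and hmp-2, which serve transcription, cell polarity and adhesion, ranked 14844, 15952 and 17408. The summit of the wrm-1 region, 39 bp from its CACGTG, lay in a coding exon of wrm-1, at signal 7.80.

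The TCF gene pop-1 (WBGene00004077) ranked 1004, at a region 2228 bp upstream of its start on chromosome I, 2832397 to 2832680. Every replicate list had the region, but only at ranks 7838, 23838 and 26940, with signals of 5.28, 2.98 and 2.01. The Nemo-like kinase gene lit-1 (WBGene00003048), whose product acts on POP-1, ranked 2766 with a signal of 12.2 on chromosome III, 13713587 to 13713870. It ranked 4340 and 10723 in replicates 1 and 3 with no match in replicate 2. In replicate 2 another region of lit-1, 18 bp upstream of a start, ranked 565, and it ranked 3569 in the pooled list.

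In the destruction complex, gsk-3 (WBGene00001746), the kinase, ranked 801 with a signal of 15.7 on chromosome I, 12815989 to 12816272. It ranked 552 in replicate 3 with a signal of 7.60, and 6313 and 11399 in replicates 1 and 2 with signals of 5.61 and 4.10. The summit lay 3085 bp upstream of gsk-3, inside a coding exon of Y18D10A.4 and 227 bp downstream of its start. The APC gene apr-1 (WBGene00000156) ranked 1755 with a signal of 13.4 on chromosome I, 8049358 to 8049641, 537 bp upstream of apr-1 and 160 bp upstream of K04G2.7. It ranked 7112 and 7344 in replicates 1 and 3. The Axin gene pry-1 ranked 3855.

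The 5 semaphorin and plexin genes ranked from 3069 to 6122, all better than the median of 7736 for other genes. Their windows ran from 10211 to 29875 bp, however, against a median of 7024 bp for other genes. Among genes with windows within 10% of their own length, 28.7% ranked better than mab-20 and 41.4% better than smp-1. For plx-2, smp-2 and plx-1 these shares were 44.5%, 45.5% and 49.4%. None of the 5 genes came within the first 3000, as did 19.7% of other genes and 24.6% of those in the same range of window lengths. The semaphorin gene mab-20 (WBGene00003111), which keeps neighbouring rays from fusing, was the best, with signal 11.9 on chromosome I, 1655559 to 1655842. It ranked 7539 and 12725 in replicates 1 and 2 and was not matched in replicate 3. The region lay in a coding exon of pqn-88, 4244 bp upstream of mab-20, and the region 226 bp upstream of mab-20 ranked 3303. The plexin genes plx-1 and plx-2 ranked 3534 and 5181, and the semaphorin genes smp-1 and smp-2 ranked 4464 and 6122. In replicate 3 an intron of smp-2 held a region of rank 882, which ranked 6806 in the pooled list.

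The ephrin gene efn-4 (WBGene00001165) ranked 5329 with a signal of 10.6 on chromosome IV, 556653 to 556936, 2439 bp upstream, and the Eph receptor gene vab-1 ranked 8620. The efn-4 region was matched in replicate 2 alone, at rank 11354.

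The 3 Hox genes had best pooled ranks of 1398, 2919 and 3740. The best, lin-39 (WBGene00003024), acts in the middle of the body, and its region lay in an intron 107 bp upstream of an internal start on chromosome III, 7534770 to 7535053, at pooled rank 1398. It ranked 290 in replicate 3 with a signal of 9.27 and 17955 in replicate 2 with a signal of 3.43, and replicate 1 had none. Replicate 2 had its own best lin-39 region elsewhere, 3795 bp upstream, at rank 803. For mab-5 (WBGene00003102), which directs posterior cell migration, the region lay in an intron on chromosome III, 7780514 to 7780797, and ranked 2526 and 26066 in replicates 2 and 3. The gene egl-5, which specifies tail cells, ranked 3740 with a region 4981 bp upstream. These genes lie 158 to 444 kb from mml-1, the gene carried by the transgene, on the same chromosome.

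**Figure D2:**
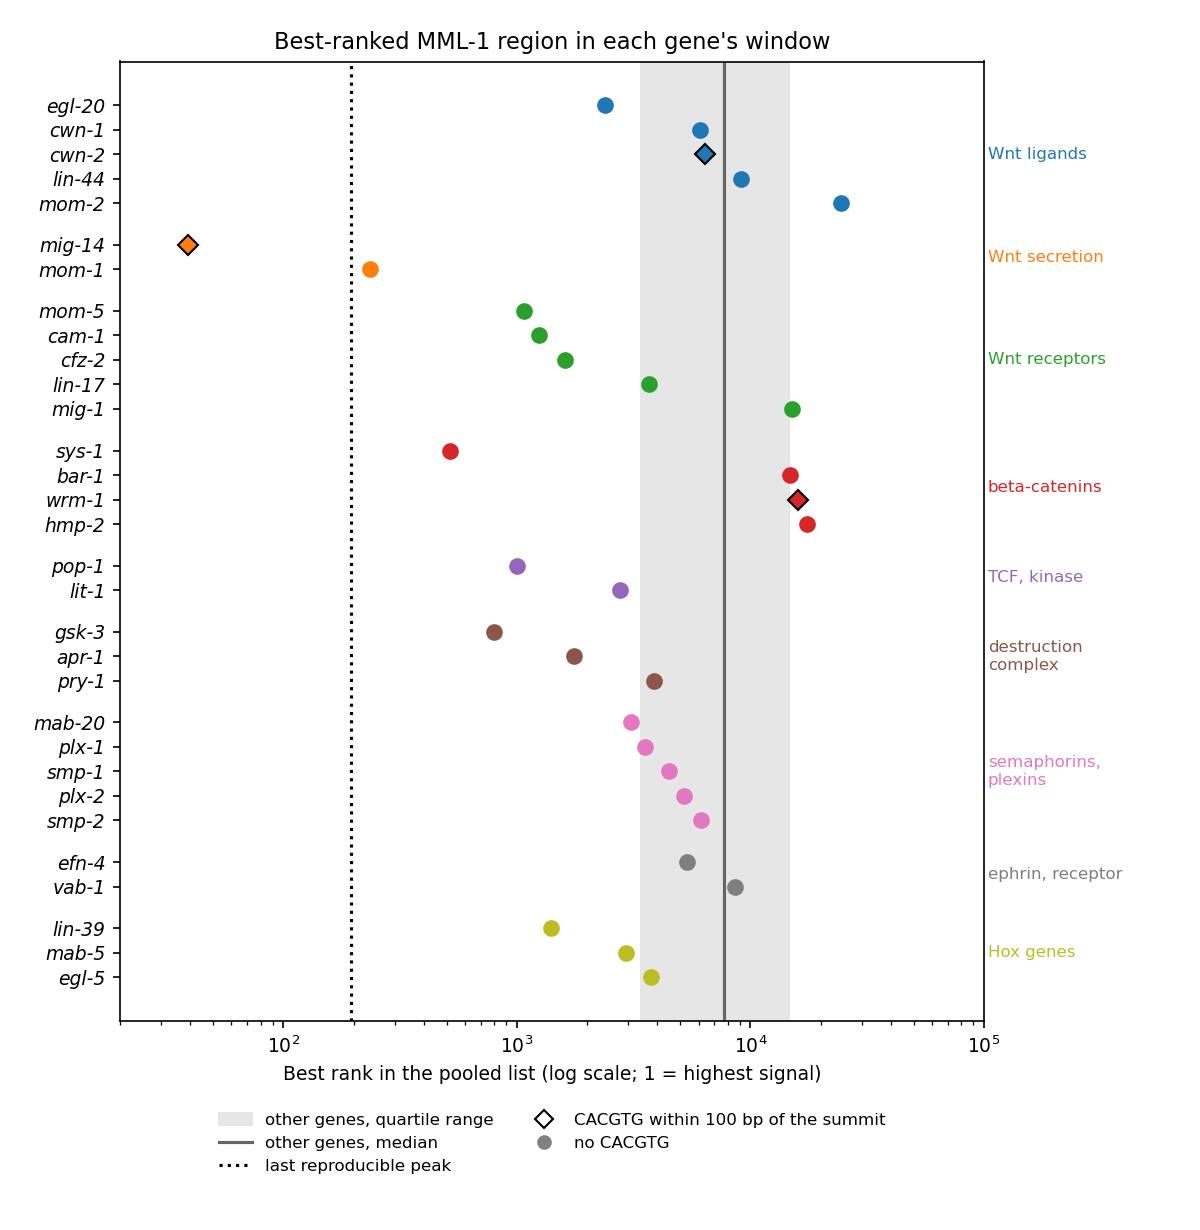
Best rank in the pooled list (log scale, 1 is the highest signal) for each of the 31 genes, grouped by role, with diamonds where CACGTG lies within 100 bp of the summit. The shaded band and line are the quartile range and median of other protein-coding genes, and mig-14 at rank 39 is alone left of the dotted line of the last reproducible peak.

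Across replicates the best regions were seldom found in all lists. Of the 31, 4 had a summit within 200 bp in all 3 replicates (mig-14, sys-1, gsk-3 and pop-1), 18 in 2, 7 in 1 and 2 in none. Among the 17655 other genes with a region, the shares were 8.74%, 39.1%, 44.6% and 7.52%. By replicate, 19, 20 and 16 of the 31 best regions were matched in replicates 1, 2 and 3, a split not given for other genes. Taking the best region of each window in each replicate list instead, the genes with a first-1000 region were mig-14, mom-1 and sys-1 in replicate 1, or 9.68% against 7.05% of other genes and 9.24% of those in the same range of window lengths. In replicate 2 they were mig-14, cfz-2, lit-1 and lin-39, or 12.9% against 7.51% and 9.44%. In replicate 3 they were mig-14, mom-1, gsk-3, lin-39 and smp-2, or 16.1% against 6.8% and 9.0%. The sets shared mig-14 in all 3 replicates, which is 3.23% of the genes against 1.01% and 1.52%.

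**Figure D3:**
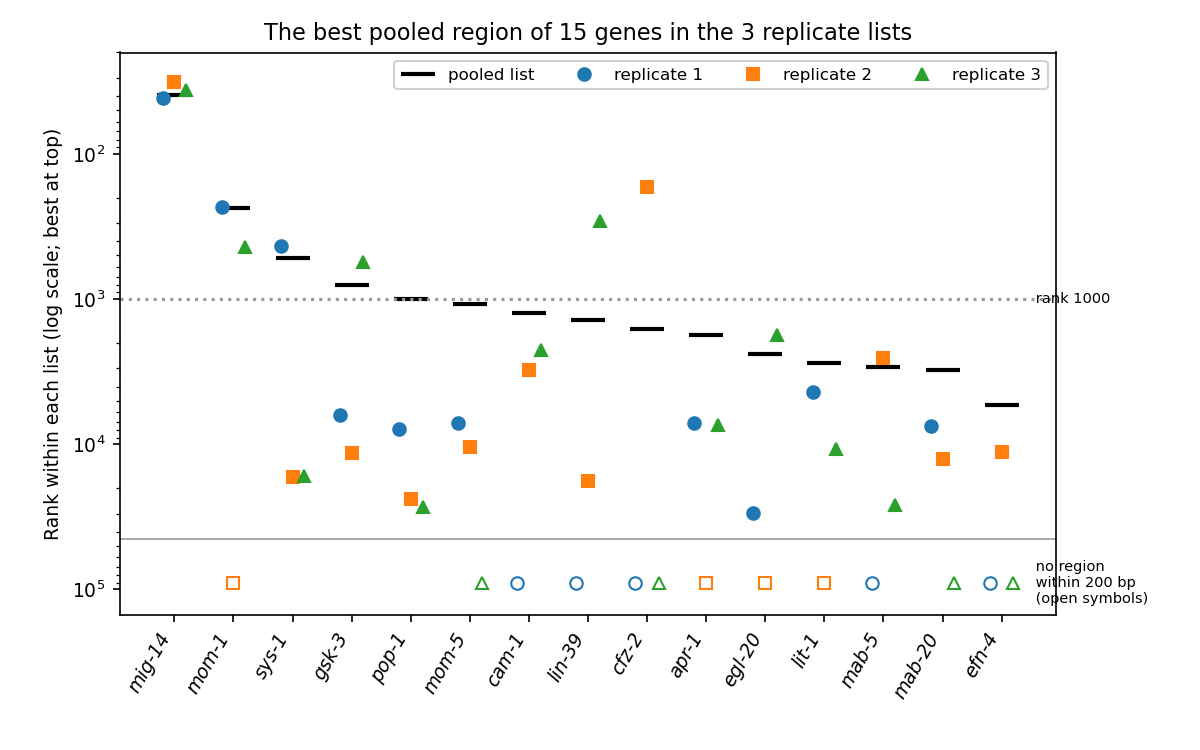
Rank of the best pooled region (black bar) and of the matching region in replicates 1, 2 and 3 (symbols) for 15 genes, on a log scale with the best rank at the top. Open symbols mark replicates with no region within 200 bp, and only mig-14 has all of its symbols close to its bar.

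As a set, the 31 genes had a median best pooled rank of 3679 (quartiles 1502 and 6261), against 7736 (3397 and 14597) for the 17655 other genes with a region. All 31 genes had a region, against 88.5% of other genes and 93.5% of those in the same range of window lengths. The median over the genes of the best rank within a replicate was 5043, 5333 and 3282 in replicates 1, 2 and 3, or 4550 ± 1110 (SD, n = 3), and that of other genes was 7728, 7361 and 7416, or 7500 ± 198 (SD, n = 3). Other genes in the same range of window lengths came closer, with medians of 6361, 6313 and 6322 in replicates 1, 2 and 3 and 6590 in the pooled list. Their median window was 8846 bp. In each replicate the median rank of the set was better than both.

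The windows of the set were longer, however, with a median of 11387 bp against 7024 bp, and held a median of 4 regions against 2. Per kb the medians were 0.363 and 0.294 regions. For each of the 31 genes the share of other genes with a better rank was computed, and the median of the 31 shares was 23.7% over all other genes and 29.6% over those in the same range of window lengths. With each gene set only against genes whose windows were within 10% of its own length, the median share was 36.7%. Of the 31, 26 ranked better than the middle other gene, and 24 did so among genes with windows of like length. How much of the better ranks goes with window length was not tested beyond these values. In windows up to 8 kb, 0 of 4 genes of the set had a first-3000 region, against 16.1% of other genes, and in windows of 8 to 10 kb 4 of 8 did, against 23.1%. In windows of 10 to 12 kb 4 of 7 did, against 27.8%, in those of 12 to 16 kb 3 of 8, against 31.4%, and in those of 16 to 30 kb 2 of 4, against 35.8%. Since the genes were picked by name and not drawn at random, no test was made on the set.

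**Figure D4:**
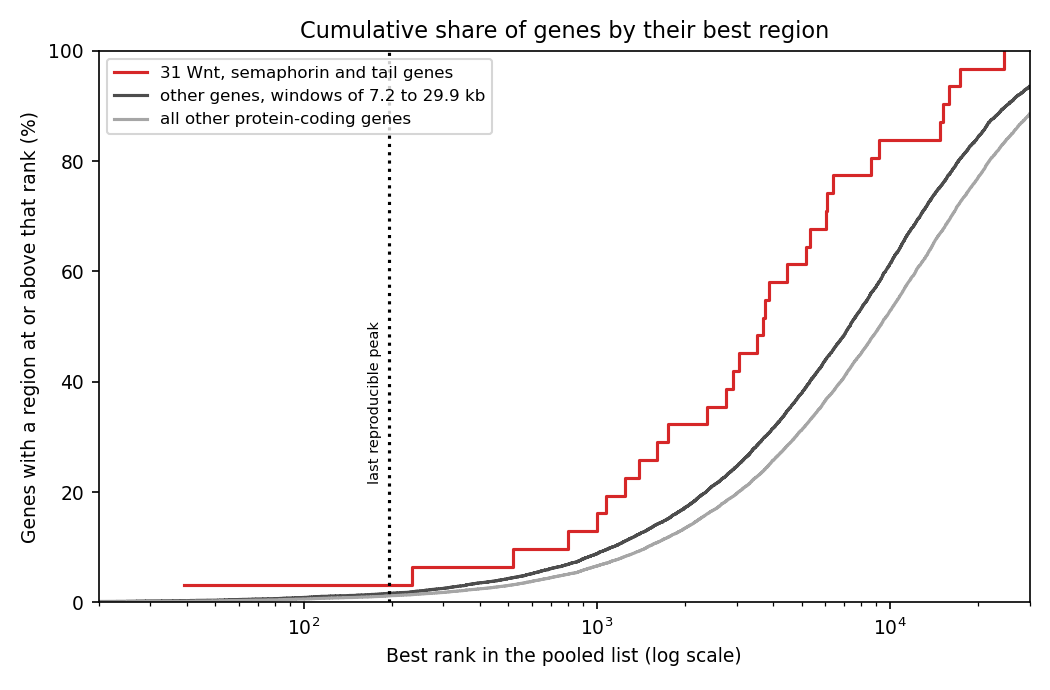
Cumulative share of genes (%) whose best region reaches a given pooled rank (log scale), for the 31 genes, for 9035 other genes in the same range of window lengths and for all 19942 other genes. The 31 genes run above both lines past rank 1000, with 41.9% of them in the first 3000 regions against 24.6% and 19.7%.

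**Figure D5:**
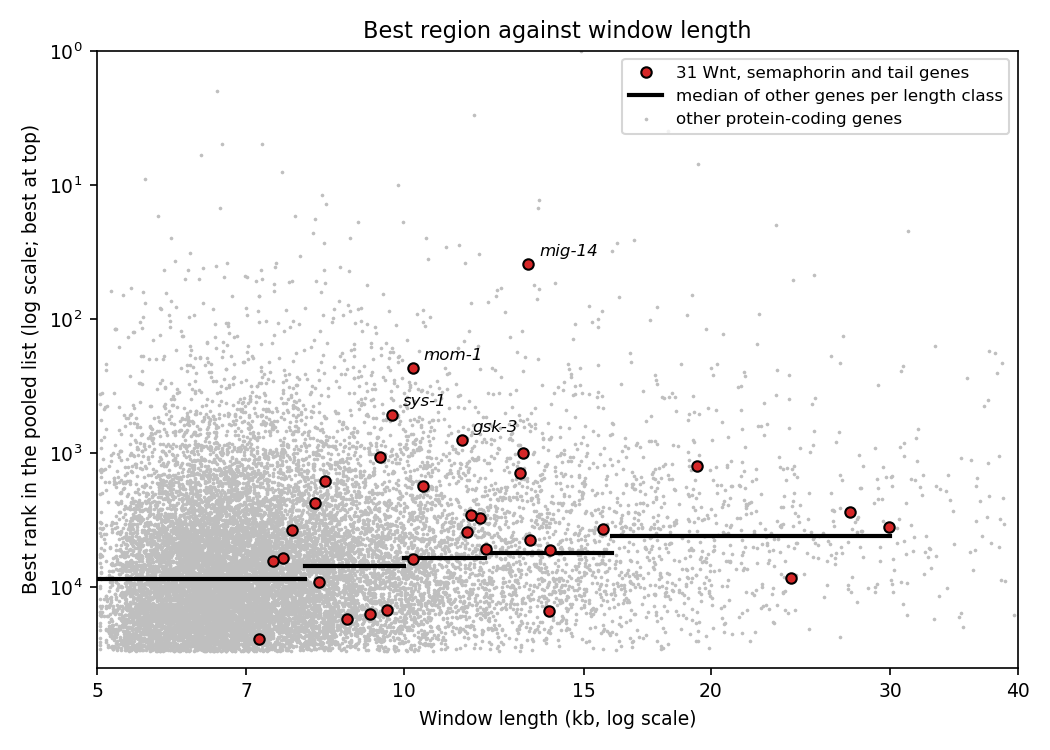
Best pooled rank against window length (both log scales) for the 31 genes (red) and other protein-coding genes (grey), with the median of other genes in 5 length classes (black). The median rank of other genes is 8745 in windows up to 8 kb and 4129 in windows of 16 to 30 kb, the better one in the longer windows.

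Of the 31 best regions, 16 had a start of the same gene as the nearest protein-coding start, or 51.6%, against 48.0% of other genes' best regions. Among the 13 in the first 3000 there were 7, or 53.8% against 50.4%, so these shares were near those of other genes. Among the 4 in the first 1000 there were 0, against 52.3% of the 1315 other genes with such a region. Outside protein-coding genes there were 12 summits, with 10 more in introns, 8 in coding exons and 1 in a 3′ UTR. Other genes' best regions were not split in this way, so nothing is read from these counts.

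Past the windows, 5 to 10 kb upstream, 4 of the 31 genes had a first-3000 region, or 12.9%, near the 13.1% of other genes. For mig-14 it ranked 1110 on chromosome II, 13732655 to 13732938, and for plx-2 it ranked 1337, 7632 bp upstream. For hmp-2 it ranked 2318. For the Hox gene egl-5 it ranked 2081, 9118 bp upstream on chromosome III, 7805114 to 7805397, and egl-5 was the gene with the nearest start, which it was not for the other 3.

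The sequence CACGTG was present in 3 of 31 best regions, or 9.68%, against 5.15% of other genes' best regions and 5.78% of those in the same range of window lengths. The windows of the set held 78 CACGTG sites, 2.01 per 10 kb against 1.80 per 10 kb in other windows. A pooled summit lay within 100 bp of 6 of the 78 sites, or 7.69%, against 8.14% of sites in other windows, and a first-1000 summit near 1 of them, or 1.28% against 1.22%. The most sites were in the long windows of lit-1, with 12, and plx-1, with 10, and none of these had a pooled summit nearby. The windows of egl-20, mom-2, mom-1 and apr-1 held no CACGTG. The related hexamer CACATG was in the best regions of mig-1 and lit-1, or 6.45% against 8.29% of other genes. The hexamer AGAGAC was in those of sys-1 and lin-39, or 6.45% against 9.63% and 10.7%.

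Further genes of the same processes were taken from 4 lists with 74 genes, of which 73 had a region and none a reproducible peak. A first-1000 region was found for 6 of the 74, or 8.11%, near the 6.59% of other genes and the 8.81% of those in the range of window lengths of the 31 genes. The windows of the 74 genes had a median of 10552 bp against 7024 bp. Of 22 other Wnt pathway genes it was egl-27 alone, a nuclear MTA-family protein, at rank 379 in its intron. Of 13 other guidance genes it was unc-73 alone, a Rac exchange factor, at rank 403, 3719 bp upstream and 244 bp upstream of unc-89. Of 18 basement membrane genes it was the laminin gene lam-2, at rank 941.

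The other 3 were among 21 male tail and ray genes, which is 14.3% of that list, against 6.59% of other genes. Among other genes with windows of 10 to 12 kb, where the list's median window falls, the share was 10.4%. The 3 genes were sma-9, which encodes a Schnurri-family cofactor, at rank 217, and the Smad genes sma-2 and sma-4 at ranks 647 and 905. Of the 706 other genes with windows of 16 to 30 kb, 92 had at least 1 first-1000 region, and those with 4 were not counted. The sma-9 window of 18692 bp held 4 first-1000 regions, at ranks 217, 252, 346 and 414. The highest had CACGTG, at chromosome X, 10770946 to 10771229, and its ranks in replicates 1, 2 and 3 were 83, 22541 and 5801. The sma-2 region lay 39 bp upstream of a start and ranked 258 and 7059 in replicates 1 and 2. The median best rank was 4754 for the tail and ray list, with a median window of 10472 bp. It was 7585 for the other Wnt list (8601 bp), 7435 for the guidance list (12474 bp) and 6721 for the basement membrane list (13155 bp), against 7736 for other genes (7024 bp).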

How the data were processed

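ChIP-seq of tagged MML-1 was measured in 3 replicates of whole larvae. The authors deposited lists of regions in the ce10 and ce11 builds, each region with a signal against a control library and a −log10 q-value, per the text files deposited with them. The −log10 q-values deposited by the authors were not used. The ce11 lists were used, and no annotation of ce10 was used. No source used here names the aligner, the caller or the reproducibility threshold. The pooled list was called on all replicates together and the replicate lists on 1 replicate each.

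Genes and transcript starts came from Ensembl release 115 and sequences from RefSeq's WBcel235 genome. Ranks follow the signal, with ties sharing the better rank, and coordinates are 1-based. A region belonged to every gene whose window held its summit. Replicate summits within 200 bp were matched, and motifs were searched on both strands within 100 bp of summits. Full values were given for 15 genes, those in the first 3000 regions and the best of each of 9 role groups, and for genes of other lists in the first 1000. The genes, lists, rule and motifs were chosen with earlier results of these data known. Placement was checked on simulated data, where 200 of 200 planted regions were recovered over 19973 genes. Python 3.11.15, numpy 2.4.6, pandas 2.3.3 and matplotlib 3.10.9 were used. Alternatives varied the window, the assignment, the rank limit, the matching distance and the replicates.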

Additional observations from a re-analysis of the deposited data

How the results depend on the processing

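Which genes had a high region depended on the window. With 2 kb upstream to the gene end, 0 genes had a reproducible peak (0.777% of other genes), 1 had a first-1000 region, mom-1 (4.31%), and 0 had one in all 3 replicates (0.627%). Of the 28 genes with a region 1 best region had CACGTG (4.94%), and the median rank was 4822.5, against 9778 for other genes. With 1000 bp upstream to 200 bp downstream these counts were 0 (0.481%), 0 (2.26%), 0 (0.326%) and 0 (5.14%). There 19 of the 31 genes had a region, with a median rank of 12611 against 12731 for other genes, and the median share of other genes with a better rank, over all 31, was 30.9%. With regions given only to the nearest start, 0 genes had a reproducible peak (0.647%), 0 a first-1000 region (3.56%) and 0 one in all 3 replicates (0.532%). A first-3000 region was still found for 8 genes (10.7%). The 26 genes with a region had a median rank of 4159.5, against 10408 for other genes. The median share of other genes with a better rank was 22.4%. In these 3 cases the mig-14 peak falls outside by construction.

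With 5 kb upstream to 200 bp downstream the median rank was 3855, against 9052 for other genes. No count moved by over 1.5 times, but the best ranks of 8 genes moved by more than the SD of their replicate ranks. Among them were mom-1, at 21638, which left the first 1000, and egl-20, at 11829. The egl-20 value still lay within the range of its best replicate ranks, 1765 to 15630. With 1 bp of overlap no count and no best rank moved. With genes of like window length, added after seeing the data, the median share was 36.7%.

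A limit of 500 regions gave 2 genes (3.08% of other genes, 4.35% in the same range of window lengths), and a limit of 2000 gave 10 (13.5% and 17.2%), with 2 in all 3 replicates (1.68%). Without 1 replicate, 1 to 2 genes had a first-1000 region in both others, against 1.66% to 1.85% of other genes. The gene mom-1 joined without replicate 2, with the same region in replicates 1 and 3. The gene lin-39 joined without replicate 1, but with separate regions, 3795 bp upstream of a start in replicate 2 and 51 bp upstream in replicate 3. With 1 replicate left out, 9 to 11 of the 31 best regions were matched in both others, against 18.6% to 26.2% of other genes. The mean of the median rank was then 4160 to 5190. With summits within 500 bp, 11 of the 31 best regions were matched in all 3 replicates, against 15.3% of other genes. The causes were not tested beyond this. No paired analysis was possible because there is 1 group and no second condition. Depth is unknown, and ranks below the reproducible list mix peaks with background.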
